A study of Homo sapiens with 12 samples.

Results

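The ZC3H12 genes, ZC3H12A, ZC3H12B, ZC3H12C and ZC3H12D, encode the regnase family of RNA-degrading proteins and were followed in pancreatic cancer cells with and without acquired resistance to cisplatin. They were picked as a family from a table of 18417 genes measured on Affymetrix arrays, with earlier results of these data known, so their p-values are not independent of that choice. Where a gene has several probe sets the one with the highest mean over the 12 arrays was to be used, but each of the 4 genes has 1 probe set, so this step selected nothing. The means over the 12 arrays were 7.27 for ZC3H12A, 4.29 for ZC3H12B, 7.65 for ZC3H12C and 6.87 for ZC3H12D on the log2 scale. The probe sets are 7900146, 8167957, 7943715 and 8130073 in the same order.

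The arrays fall into 4 groups of 3. AsPC1 and BxPC3 are established human lines of pancreatic ductal adenocarcinoma and were grown without drug. AsPC1-R and BxPC3-R are their derivatives with resistance to cisplatin, a platinum drug that crosslinks DNA, and were kept in 1.67 µM and 0.60 µM cisplatin. Their last passage before harvest was free of cisplatin, so no group was in contact with the drug when total RNA was taken from subconfluent cells. Each resistant group is 1 derivative of 1 line, and the labels do not say whether it is a clone. Nor do they state whether separate cultures gave the 3 samples within each group, so p-values measure the spread between these samples, which may be technical.

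Regnases are endoribonucleases that combine a PIN-like nuclease domain with a CCCH zinc finger. The founding member, Regnase-1, the product of ZC3H12A, cuts stem-loops in the mRNAs of inflammatory genes such as IL6 and thereby shortens their life. It is itself induced by signals of interleukin-1, interleukin-17 and Toll-like receptors through NF-kB, and is then inactivated when IKK or TBK1 kinases phosphorylate it or the protease MALT1 cuts it. ZC3H12B encodes Regnase-2, ZC3H12C encodes Regnase-3, which is known from macrophages and endothelium, and ZC3H12D encodes Regnase-4, known from lymphocytes. Epithelial tumour cells can express several of them together with the cytokine mRNAs that the family acts on.

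RefSeq promoter sequences of 300 bases, which begin upstream of a start site and end just past it in the GRCh38.p14 assembly, were found for 3 of the 4 genes, ZC3H12A, ZC3H12B and ZC3H12C. The sequences of ZC3H12C are shown because this gene had the largest changes of the family and has 2 start sites, and that of ZC3H12A because it is the other member that changed in a resistant derivative. They are written 5′ to 3′ on the plus strand, with CpG dinucleotides in capitals.
ZC3H12C, first start site, chr11:110093142-110093441: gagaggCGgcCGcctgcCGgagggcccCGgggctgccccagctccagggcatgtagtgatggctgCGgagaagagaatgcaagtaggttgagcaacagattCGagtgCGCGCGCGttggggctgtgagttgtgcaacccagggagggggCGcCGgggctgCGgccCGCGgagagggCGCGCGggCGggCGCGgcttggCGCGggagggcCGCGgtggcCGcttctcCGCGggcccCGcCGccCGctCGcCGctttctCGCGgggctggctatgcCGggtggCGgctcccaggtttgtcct
ZC3H12C, second start site, chr11:110130750-110131049: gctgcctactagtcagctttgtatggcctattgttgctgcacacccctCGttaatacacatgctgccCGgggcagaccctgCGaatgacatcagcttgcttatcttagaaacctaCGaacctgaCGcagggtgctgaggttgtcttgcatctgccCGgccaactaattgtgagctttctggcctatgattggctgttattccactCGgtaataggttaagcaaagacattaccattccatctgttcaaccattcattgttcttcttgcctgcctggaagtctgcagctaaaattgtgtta
ZC3H12A, chr1:37474330-37474629: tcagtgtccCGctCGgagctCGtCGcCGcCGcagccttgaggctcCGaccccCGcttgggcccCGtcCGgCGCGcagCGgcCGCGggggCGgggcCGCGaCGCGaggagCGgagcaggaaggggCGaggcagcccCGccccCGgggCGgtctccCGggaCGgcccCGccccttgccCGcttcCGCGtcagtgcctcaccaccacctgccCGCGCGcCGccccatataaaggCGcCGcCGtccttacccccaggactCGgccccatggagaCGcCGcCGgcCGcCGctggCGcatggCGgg
The 2 promoters of ZC3H12C differ in composition. The first holds 37 CpG dinucleotides at a GC content of 74.3%, more CpG than 88.7% of the 34943 promoters in the table, whose median is 14. The second holds 7 at a GC content of 47.7%, more than 36.9% of promoters. The ZC3H12A promoter holds 46 CpG at a GC content of 79.0%, more than 97.1% of promoters, and the ZC3H12B promoter, on the plus strand at chrX:65034576-65034875, holds 28. The search for motifs covered both strands. The NF-kB consensus (kB) motif matched once, in the first ZC3H12C promoter from position -232, and 11.3% of all promoters hold a match. TATAAA matched once, in the ZC3H12A promoter from position -27, and occurs in 11.6% of promoters. The AP-1 motif TGANTCA, in which N is any base, occurs in 7.72% of promoters and matched in none of these 4. These matches describe the letters of each window, and the arrays do not tell which ZC3H12C start site was used.

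The deposited values have array medians between 6.48 and 6.65 (log2), and precision is limited by having 3 arrays in a group. Probe sets differ in how brightly they read, so levels are compared between groups and not between genes. The arrays give no background reading here. BxPC3 cells lack the SMAD4 and CDKN2A genes, yet their probe sets still read 4.70 ± 0.49 and 6.22 ± 0.11 (mean ± SD, n = 3). A probe set without its transcript can thus read this high. That of CDKN2A even passed the test in BxPC3-R, at -0.47 (SE 0.14; adjusted p = 0.0249 by limma). Changes within such levels are therefore uncertain in size, and a small called change there may not be one of the gene. In AsPC1, SMAD4 and CDKN2A read 9.90 ± 0.14 and 7.44 ± 0.25. The BxPC3 replicate 2 array stood apart. When the 50 transcripts that most exceeded BxPC3-R in AsPC1 were taken, a choice made after values were seen, all 50 read higher on it than on replicates 1 and 3, with a median excess of 0.83. The results on BxPC3 are therefore also given without it. The epithelial marker EPCAM read 12.35 or more on every array, and PTPRC, the pan-leukocyte marker, read 3.10 to 3.61.

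**Figure D1:**
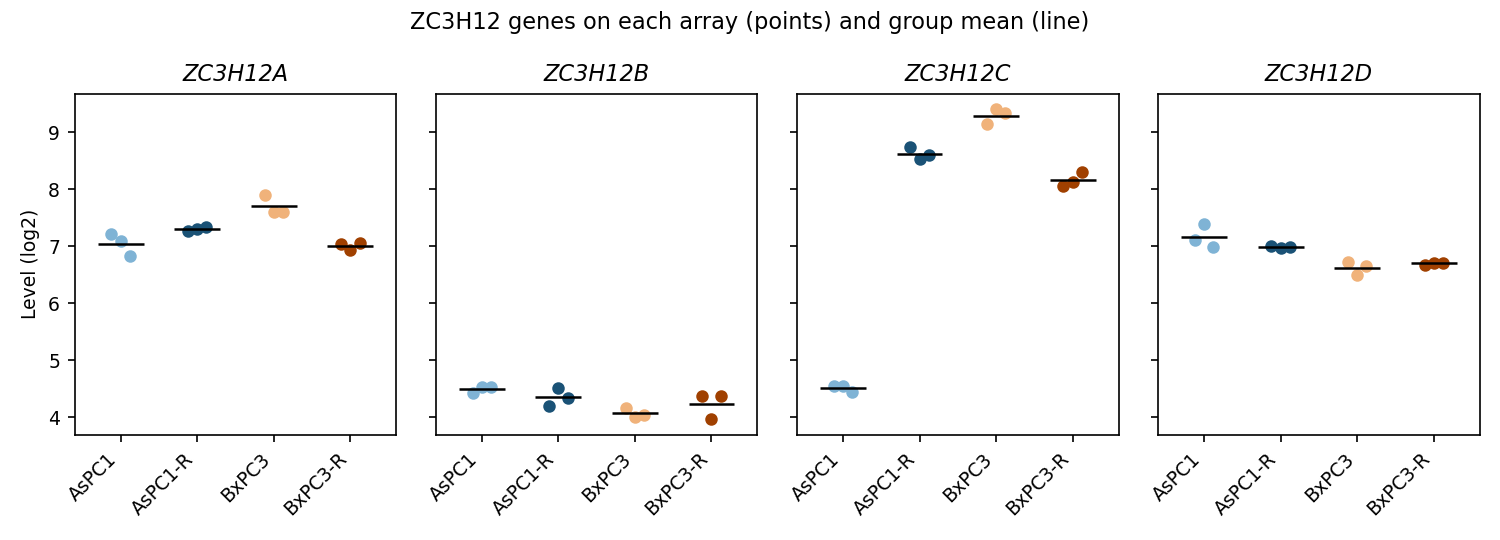
Level of each ZC3H12 gene (log2, vertical axis) on the 3 arrays of each of the 4 groups (horizontal axis), with points for arrays and a line for the group mean. ZC3H12C lies near 4.51 in AsPC1 and between 8.06 and 9.41 in the other groups, while ZC3H12A, the next most variable, spans 1.08 over all 12 arrays; levels are not comparable between genes.

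ZC3H12C was the member that differed most between the lines. It read 4.55, 4.55 and 4.44 on the 3 AsPC1 arrays and 8.75, 8.54 and 8.59 on the AsPC1-R arrays. It read 9.14, 9.41 and 9.33 in BxPC3 and 8.06, 8.13 and 8.30 in BxPC3-R. Ordered by level, BxPC3 came first, then AsPC1-R, then BxPC3-R, with AsPC1 far below, and no 2 groups overlapped. Its lowest and highest arrays were 4.97 log2 units apart, against spans of 1.08 for ZC3H12A, 0.89 for ZC3H12D and 0.57 for ZC3H12B.

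In AsPC1-R, the mRNA of Regnase-3 rose. The mean went from 4.51 ± 0.06 in AsPC1 to 8.63 ± 0.11 in AsPC1-R (mean ± SD, n = 3), a log2 change of 4.12 (SE 0.10) or 17.3-fold, with an adjusted p of 3.78e-12 by limma. By size the change ranked 6 among the 18417 genes. The AsPC1 level lies within the range that deleted genes read, so the size of the rise is uncertain. In this comparison 1 of the 4 family members passed the test, and 20.3% of all genes did (11.6% rose and 8.64% fell), so the share is near the background and the count says nothing particular of the family. Arrays of AsPC1-R and AsPC1 did not overlap for 33.4% of all genes.

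In BxPC3-R, ZC3H12C moved the other way. It fell from 9.29 ± 0.14 to 8.16 ± 0.12, a log2 change of -1.13 (SE 0.10) or 2.19-fold, with an adjusted p of 1.89e-06 by limma. Here 2 of the 4 members fell, ZC3H12C and ZC3H12A, while 20.8% of all genes passed the test, 9.75% upwards and 11.0% downwards. Arrays of BxPC3-R and BxPC3 did not overlap for both genes, and for 38.2% of all genes. Without BxPC3 replicate 2 the fall of ZC3H12C was -1.07 (adjusted p = 1.79e-05 by limma). The changes in the 2 derivatives differed by 5.25 (SE 0.14; adjusted p = 1.12e-11 by limma), which ranked 15 by size among all genes, and by 5.19 without BxPC3 replicate 2. Between the lines, 2 of the 4 members and 25.4% of all genes differed in their response.

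The parental lines were farther apart in ZC3H12C than the resistant ones. AsPC1 stood 4.78 (SE 0.10) below BxPC3 (adjusted p = 8.01e-14 by limma), or 4.72 without BxPC3 replicate 2. AsPC1-R stood 0.46 (SE 0.10) above BxPC3-R (adjusted p = 0.00120 by limma). These comparisons share their 4 groups with those above and repeat the same values from another side.

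ZC3H12A, which encodes Regnase-1, varied over a narrower range. It read 7.21, 7.10 and 6.82 in AsPC1 and 7.26, 7.31 and 7.34 in AsPC1-R. It read 7.90, 7.60 and 7.61 in BxPC3 and 7.05, 6.94 and 7.05 in BxPC3-R. BxPC3 was highest and AsPC1-R second, each clear of all other groups, while the arrays of AsPC1 and BxPC3-R overlapped. In BxPC3-R it fell from 7.70 ± 0.17 to 7.01 ± 0.06 (mean ± SD, n = 3), a log2 change of -0.69 (SE 0.11) or 1.61-fold (adjusted p = 0.000360 by limma), and by 0.74 without BxPC3 replicate 2. In AsPC1-R the change was 0.26 (SE 0.11) with an adjusted p of 0.112 by limma, which missed the threshold although the 3 arrays of each group did not overlap. The difference between both changes was 0.95 (SE 0.15; adjusted p = 0.000377 by limma). Between the parental lines, AsPC1 stood 0.66 (SE 0.11) below BxPC3 (adjusted p = 0.000161 by limma).

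ZC3H12D, the gene of Regnase-4, separated the lines of origin rather than resistant from parental cells. It read 7.11, 7.39 and 6.99 in AsPC1 and 7.01, 6.97 and 6.99 in AsPC1-R. It read 6.72, 6.51 and 6.65 in BxPC3 and 6.68, 6.71 and 6.71 in BxPC3-R. Both AsPC1 groups lay above both BxPC3 groups on every array, and within each line the arrays of parental and resistant cells overlapped. AsPC1 exceeded BxPC3 by 0.54 (SE 0.10; adjusted p = 0.000480 by limma), and AsPC1-R exceeded BxPC3-R by 0.29 (SE 0.10; adjusted p = 0.0296 by limma). The changes in AsPC1-R and BxPC3-R were -0.17 (SE 0.10) and 0.08 (SE 0.10), with adjusted p values of 0.260 and 0.693 by limma.

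ZC3H12B, the gene of Regnase-2, read at levels within those of the deleted genes, so it is not shown to be expressed. It read 4.43, 4.54 and 4.54 in AsPC1 and 4.21, 4.52 and 4.35 in AsPC1-R. It read 4.16, 4.01 and 4.05 in BxPC3 and 4.38, 3.97 and 4.37 in BxPC3-R. Ordered by mean, AsPC1 came first, then AsPC1-R, BxPC3-R and BxPC3, and each group overlapped with the next, while AsPC1 and BxPC3 did not overlap. AsPC1 exceeded BxPC3 by 0.42 (SE 0.11; adjusted p = 0.00723 by limma). The changes in AsPC1-R and BxPC3-R were -0.14 (SE 0.11) and 0.16 (SE 0.11), with adjusted p values of 0.424 and 0.392 by limma.

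Between the parental lines the readings of all 4 members thus differed, ZC3H12A and ZC3H12C higher in BxPC3 and ZC3H12B and ZC3H12D higher in AsPC1. As ZC3H12B is not shown to be expressed, its call in this comparison may not be one of the gene. In that comparison 50.6% of all genes passed the test, 27.7% higher and 22.9% lower in AsPC1. Arrays did not overlap for all 4 members and for 54.3% of all genes. Without BxPC3 replicate 2 the 4 calls held, at -0.71 for ZC3H12A, 0.39 for ZC3H12B and 0.48 for ZC3H12D, with adjusted p values up to 0.0284 by limma. Between the resistant derivatives 3 of the 4 members differed, all 3 higher in AsPC1-R, against 43.3% of all genes, 21.3% higher and 22.0% lower. Arrays did not overlap for the same 3 members and for 55.4% of all genes. The calls of ZC3H12A, at 0.29 (SE 0.11; adjusted p = 0.0429 by limma), and of ZC3H12D rest on small differences. With a single array of AsPC1-R or BxPC3-R left out, adjusted p values reached 0.135 for ZC3H12A (without BxPC3-R replicate 2) and 0.0784 for ZC3H12D (without BxPC3-R replicate 1).

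**Figure D2:**
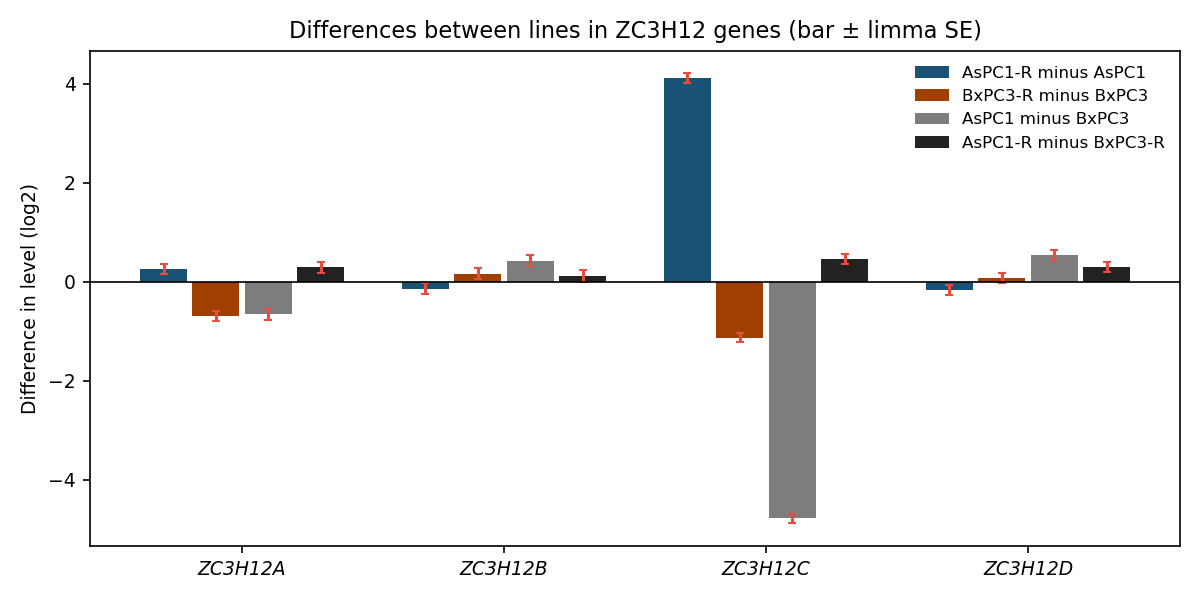
Difference in level (log2, vertical axis) for each ZC3H12 gene (horizontal axis) in 4 comparisons, as bars with limma standard errors from 3 arrays per group. ZC3H12C reached 4.12 in AsPC1-R and -1.13 in BxPC3-R, and the next largest change within a line is -0.69 for ZC3H12A in BxPC3-R.

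The genes whose levels followed ZC3H12C most closely were found as those with the smallest root mean square difference over the 12 arrays, after each gene's own mean was subtracted. They were KYNU (0.35), IL1A (0.39), SLC39A8 (0.40), KLHL5 (0.44) and AKR1B10 (0.45, all in log2 units). KYNU encodes kynureninase of tryptophan breakdown, IL1A the cytokine interleukin-1 alpha, SLC39A8 a zinc and manganese importer, and AKR1B10 an aldo-keto reductase. IL1A, for example, read 7.12 in AsPC1, 10.69 in AsPC1-R, 12.11 in BxPC3 and 11.22 in BxPC3-R as group means. Like ZC3H12C, all 5 rose in AsPC1-R, by 3.06 to 4.12, and 4 of them fell in BxPC3-R. The exception was SLC39A8 at -0.19 there (adjusted p = 0.390 by limma). All were selected for this likeness, so their agreement is no test.

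**Figure D3:**
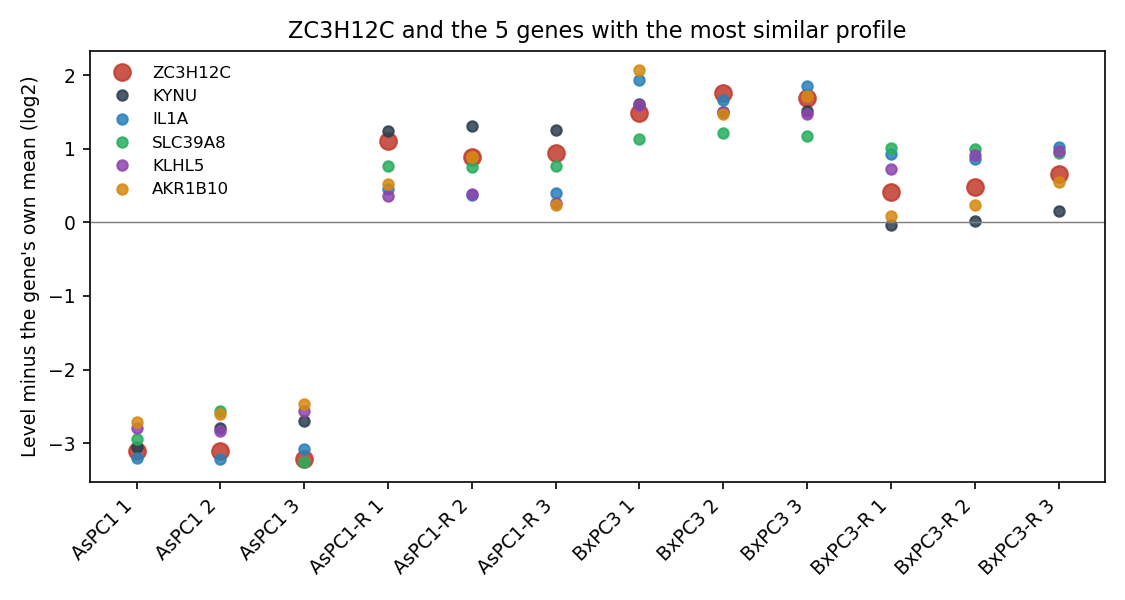
Level minus the gene's own mean over 12 arrays (log2, vertical axis) for ZC3H12C and its 5 nearest genes on each array (horizontal axis). All 6 genes lie lowest on the 3 AsPC1 arrays and highest on the 3 BxPC3 arrays.

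The genes nearest to ZC3H12A by the same measure were CACNB1 (0.10), ISYNA1 (0.11), CORO2A (0.12), PCYOX1L (0.13) and HINT3 (0.14). They too were selected for their likeness, so their agreement is no test. ISYNA1 encodes the enzyme that makes inositol phosphate from glucose phosphate, and CACNB1 a calcium channel subunit. Each of the 5 fell in BxPC3-R, by 0.41 to 0.79 in size, and in AsPC1-R CACNB1 and PCYOX1L stood at 0.29 and 0.25 (adjusted p = 0.0409 and 0.0294 by limma). Both calls were lost when any one AsPC1-R replicate or AsPC1 replicate 3 was left out, and that of CACNB1 also without AsPC1 replicate 1, BxPC3 replicate 2, BxPC3 replicate 3 or BxPC3-R replicate 2 (adjusted p up to 0.117).

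ZC3H12C lies on chromosome 11, and its measured neighbours in the GRCh38.p14 order were set beside it, a choice made after its values were seen. The adjoining genes C11orf87 and RDX, which encodes the membrane linker radixin, changed in AsPC1-R by 0.07 (SE 0.18) and 0.20 (SE 0.08), with adjusted p values of 0.822 and 0.125 by limma. EXPH5, an effector of the trafficking protein RAB27 and the third measured gene upstream, went up from 4.83 ± 0.24 to 7.76 ± 0.11 (mean ± SD, n = 3), a log2 change of 2.93 (SE 0.11; adjusted p = 3.33e-10 by limma). Its AsPC1 level lies in the range of the deleted genes, so this size is uncertain too. In BxPC3-R, EXPH5 changed by 0.05 (SE 0.11; adjusted p = 0.833), whereas RDX rose by 0.35 (SE 0.08; adjusted p = 0.00922). ARHGAP20, the third measured gene downstream, fell there with ZC3H12C, at -0.57 (SE 0.14; adjusted p = 0.00873), at levels that the deleted genes also reach. DDX10, a helicase gene, stood at 0.34 (SE 0.10; adjusted p = 0.0191), a call lost without BxPC3 replicate 1, BxPC3 replicate 3, BxPC3-R replicate 2 or BxPC3-R replicate 3 (adjusted p up to 0.0809). Of the 6 neighbours, then, 1 moved with ZC3H12C in AsPC1-R and another in BxPC3-R. Of all genes, 11.6% rose in AsPC1-R and 11.0% fell in BxPC3-R, so these counts say nothing particular of the region. The genes between EXPH5 and ZC3H12C did not pass the test in AsPC1-R.

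**Figure D4:**
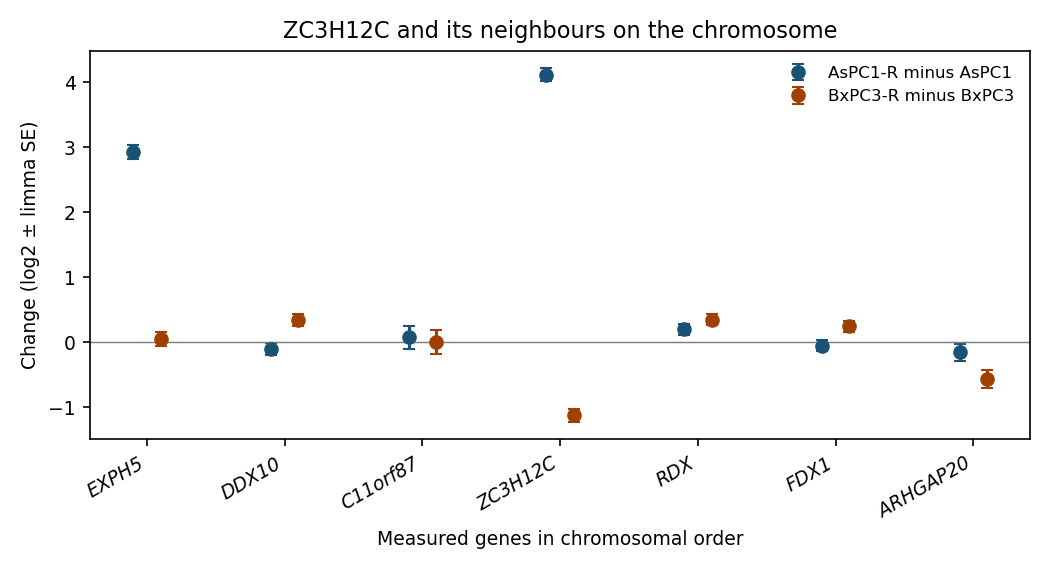
Log2 change with limma standard error (vertical axis) of ZC3H12C and 3 measured genes on either side, in chromosomal order (horizontal axis), in AsPC1-R and BxPC3-R. EXPH5 at 2.93 and ZC3H12C at 4.12 stand out in AsPC1-R, with the other 5 genes within 0.20 of zero.

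The mRNAs that Regnase-1 is known to act on were followed as a list of 27 genes, 26 of them measured. In AsPC1-R, 9 of the 26 rose and 0 fell, with a median change of 0.11 against -0.05 over all genes, of which 11.6% rose. In BxPC3-R, 13 fell and 2 rose, with a median of -0.32 against 0.02 over all genes, of which 11.0% fell and 9.75% rose. The list holds many genes that NF-kB induces, and its direction in these samples was known from earlier results, so it is no independent evidence. Without BxPC3 replicate 2 these counts stayed the same, and without AsPC1 replicate 1 there was 1 fall in AsPC1-R. By limma, 8 of the 26, or 30.8%, rose in AsPC1-R and fell in BxPC3-R, as ZC3H12C did, against 3.43% of all genes. Among the 8 is PTGS2, which went from 4.48 to 4.76 in AsPC1-R (0.28, SE 0.08; adjusted p = 0.0286 by limma). The deleted genes also read at these levels, so that rise may not be one of the gene. Of the falls in BxPC3-R, those of CXCL3, CCL2 and BCL2A1 ended under the 6.22 of the deleted CDKN2A, so their sizes are uncertain.

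In AsPC1-R the largest rises were those of interleukin-1 beta and the neutrophil chemokines CXCL8 and CXCL1, and in BxPC3-R the largest falls were those of CXCL8, CXCL1, IL6 and CXCL2. IL1B read 5.93 ± 0.13 in AsPC1 and 8.44 ± 0.17 in AsPC1-R (mean ± SD, n = 3). Its BxPC3 level was 10.85 ± 0.09 and its BxPC3-R level 9.25 ± 0.15. It thus rose by 2.51 (SE 0.11; adjusted p = 1.56e-09 by limma) and fell by 1.59 (SE 0.11; adjusted p = 2.17e-07). Its AsPC1 level lies under the 6.22 of the deleted CDKN2A, so the size of the rise is uncertain. Its order of groups was BxPC3, BxPC3-R, AsPC1-R, AsPC1, which exchanges the middle pair of the order seen for ZC3H12C. CXCL8 rose by 2.06 (SE 0.12) in AsPC1-R and stood at -2.87 (SE 0.12) in BxPC3-R, and CXCL1 at 1.50 (SE 0.11) and -2.78 (SE 0.11). NFKBIZ, an atypical nuclear IkB protein and a classical Regnase-1 substrate, stood at 1.23 (SE 0.08) and -1.09 (SE 0.08). CXCL2 changed by 0.76 (SE 0.14) and -2.51 (SE 0.14), and LCN2, which encodes the iron-scavenging lipocalin, by 1.05 (SE 0.12) and -2.37 (SE 0.12). The adjusted p values of these 10 changes ranged up to 0.00153 by limma. The BxPC3-R level of CXCL2 also lies under that of the deleted CDKN2A, so the size of its fall is uncertain.

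Other members of the list did not follow this course. IL6 read 5.18 ± 0.14 in AsPC1 and 5.25 ± 0.10 in AsPC1-R, with a change of 0.07 (SE 0.09; adjusted p = 0.663 by limma). In BxPC3-R it fell from 8.15 ± 0.11 to 5.47 ± 0.07 (log2 change -2.68, SE 0.09; adjusted p = 5.22e-10 by limma). Except in BxPC3, IL6 read under the 6.22 of the deleted CDKN2A. It is thus not shown to be expressed in AsPC1 or AsPC1-R, and the size of its fall is uncertain. GATA3 rose in both derivatives, by 0.69 (SE 0.10) and 0.87 (SE 0.10). TFRC, the transferrin receptor gene, rose in BxPC3-R by 0.52 (SE 0.08; adjusted p = 0.000409 by limma) and stood at 0.10 (SE 0.08; adjusted p = 0.429) in AsPC1-R.

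**Figure D5:**
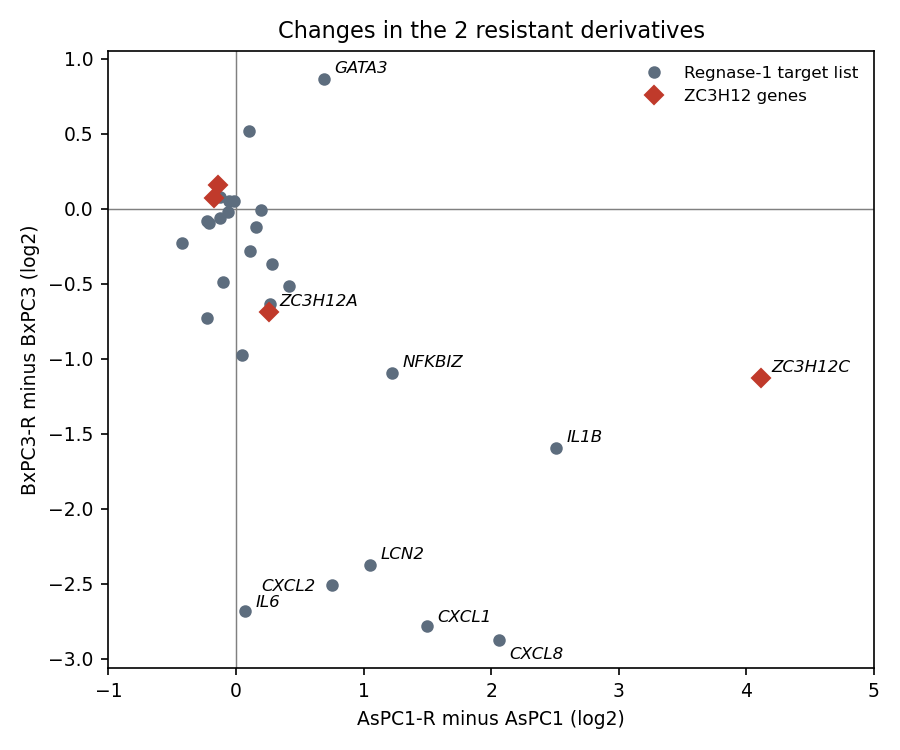
Log2 change in AsPC1-R (horizontal axis) against log2 change in BxPC3-R (vertical axis) for the 26 measured genes of the Regnase-1 target list (circles) and the 4 ZC3H12 genes (diamonds). ZC3H12C lies at 4.12 and -1.13, in the same quadrant as IL1B, CXCL8, CXCL1, CXCL2, NFKBIZ and LCN2.

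Signalling genes upstream of the family were listed as 21, of which 19 were measured. In AsPC1-R, 4 rose and 2 fell, and in BxPC3-R, 3 rose and 5 fell, with medians of -0.11 and 0.06 against -0.05 and 0.02 over all genes. Of all genes 11.6% rose and 8.64% fell in AsPC1-R, and 9.75% rose and 11.0% fell in BxPC3-R. The balance of the list moved with scaling, to 3 rises and 5 falls in AsPC1-R with a further quantile normalization, and to 4 and 4 in BxPC3-R with arrays centred on their medians. IL1R1, the receptor through which interleukin-1 induces Regnase-1, went up from 5.23 ± 0.18 to 6.54 ± 0.10 (mean ± SD, n = 3) in AsPC1-R, a log2 change of 1.31 (SE 0.11; adjusted p = 1.49e-06 by limma). In BxPC3-R it went from 6.79 ± 0.20 to 5.88 ± 0.05, at -0.91 (SE 0.11; adjusted p = 5.27e-05 by limma). The AsPC1 and BxPC3-R levels lie under the 6.22 of the deleted CDKN2A, so these sizes are uncertain. The kinase gene IKBKE also went both ways, at 0.61 (SE 0.11) and -0.69 (SE 0.11). The adaptor gene MYD88 rose by 0.45 (SE 0.10) in AsPC1-R, and TANK, a scaffold for TBK1, and IKBKB, a kinase of Regnase-1, stood at -0.56 (SE 0.10) and -0.42 (SE 0.10) in BxPC3-R. TBK1, the other kinase gene named above, went the opposite way to IKBKE and rose there by 0.41 (SE 0.08; adjusted p = 0.00247 by limma). In AsPC1-R it stood at -0.28 (SE 0.08; adjusted p = 0.0288), a call lost without AsPC1 replicate 1, AsPC1 replicate 2, AsPC1-R replicate 2 or AsPC1-R replicate 3 (adjusted p up to 0.121). This call was also lost with array weights (adjusted p = 0.0631 by limma) and with the compared groups fitted alone (0.106). BCL10, a partner of MALT1, and IRAK1, a kinase below MYD88, rose in BxPC3-R by 0.34 (SE 0.08) and 0.31 (SE 0.07). TRAF3IP2, the adaptor of interleukin-17 receptors, fell by 0.33 (SE 0.08; adjusted p = 0.0108 by limma) in AsPC1-R, but not without AsPC1-R replicate 2 (adjusted p = 0.0523). The 2 falls became 0 without that array and 1 without AsPC1 replicate 1, AsPC1 replicate 2 or AsPC1-R replicate 3.

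RNA-binding proteins that work beside regnases or share their nuclease fold made up a list of 18, all measured. In AsPC1-R, 3 rose and 4 fell, and in BxPC3-R, 2 rose and 2 fell, with medians of -0.09 and 0.13. The shares in BxPC3-R are near those of all genes, 9.75% up and 11.0% down, and in AsPC1-R those of all genes were 11.6% and 8.64%. With arrays centred on their medians the list had 6 rises and 1 fall in BxPC3-R and 2 rises and 5 falls in AsPC1-R, and a further quantile normalization gave 4 and 2, and 2 and 6. ZFP36, which encodes tristetraprolin, a CCCH protein that recruits deadenylases to cytokine mRNAs, moved opposite to ZC3H12C. It fell by 0.60 (SE 0.11; adjusted p = 0.000962 by limma) in AsPC1-R and rose by 0.45 (SE 0.11; adjusted p = 0.00702) in BxPC3-R. N4BP1, a relative with the same type of nuclease domain, fell in BxPC3-R from 9.42 ± 0.09 to 8.86 ± 0.03 (log2 change -0.55, SE 0.09; adjusted p = 0.000384 by limma). It stood at 0.13 (SE 0.09; adjusted p = 0.348) in AsPC1-R. ZC3HAV1, another CCCH protein, with an antiviral role, rose by 0.56 (SE 0.08) in AsPC1-R. The gene of the partner Roquin-1, RC3H1, fell in BxPC3-R by 0.28 (SE 0.09; adjusted p = 0.0323 by limma), but this was lost without any one of BxPC3 replicates 2 and 3 and all BxPC3-R replicates (adjusted p up to 0.135) and with replicate number as a block (0.0523). Single arrays also moved the counts of this list, which fell to 1 rise (without AsPC1 replicate 1, AsPC1-R replicate 1 or AsPC1-R replicate 3) and to 2 falls (without AsPC1-R replicate 1) in AsPC1-R. In BxPC3-R, 1 fall was left without each array that RC3H1 needed.

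The general machinery of deadenylation and decapping, through which mRNAs are removed without a regnase cut, was listed as 27 genes with 26 measured. In AsPC1-R, 3 rose and 6 fell, and in BxPC3-R, 1 rose and 4 fell, with medians of -0.08 and 0.05, close to those of all genes, against 11.6% and 8.64% of all genes in AsPC1-R and 9.75% and 11.0% in BxPC3-R. The balance in BxPC3-R depended on scaling, with 4 rises and 2 falls with arrays centred on their medians, 2 and 5 with a further quantile normalization, and 6 and 6 with array weights. In AsPC1-R it was 2 and 6 with centring and 2 and 7 with quantile normalization. The largest change was a rise of EDC3, an enhancer of decapping, by 0.97 (SE 0.18; adjusted p = 0.00155 by limma) in AsPC1-R. CNOT6L, a deadenylase of the CCR4-NOT complex, fell in BxPC3-R by 0.47 (SE 0.10; adjusted p = 0.00339 by limma). In AsPC1-R it stood at -0.31 (SE 0.10; adjusted p = 0.0414 by limma), a call that held without AsPC1-R replicate 3, BxPC3 replicate 1 or BxPC3 replicate 2 and was lost without each other array (adjusted p up to 0.180) and with replicate number as a block (0.0504). These counts moved with single arrays, to 2 falls in AsPC1-R without AsPC1-R replicate 2, 3 falls there without AsPC1 replicate 2, and 1 rise there without either. In BxPC3-R, 1 fall was left without BxPC3 replicate 1 or BxPC3-R replicate 3, and 2 without BxPC3 replicate 3, BxPC3-R replicate 1 or BxPC3-R replicate 2. The rises there became 2 without AsPC1 replicate 1, AsPC1 replicate 3 or BxPC3 replicate 3.

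Markers of other cell types were read beside these results, since Regnase-3 and Regnase-4 are known from macrophages, endothelium and lymphocytes. Within each line, the summed level of 7 of 8 leukocyte markers moved in the same direction as ZC3H12C. It was 10.33 to 10.48 in AsPC1 and 11.01 to 11.07 in AsPC1-R, and 9.65 to 9.81 in BxPC3 and 9.07 to 9.27 in BxPC3-R (log2). Between the parental lines the sum was higher in AsPC1, opposite to ZC3H12C. CD68, a lysosomal protein gene, held most of that sum, with 10.11 in AsPC1 and 10.83 in AsPC1-R. It rose by 0.72 (SE 0.09) in AsPC1-R and stood at -0.72 (SE 0.09) in BxPC3-R. Of the other leukocyte markers, ITGAM stood at 0.43 (SE 0.14; adjusted p = 0.0426 by limma) in AsPC1-R, a call lost with replicate number as a block (0.0518) and without AsPC1 replicate 1, AsPC1 replicate 2, AsPC1-R replicate 1, AsPC1-R replicate 3 or any BxPC3-R replicate (up to 0.165). CD3E stood at -0.47 (SE 0.13; adjusted p = 0.0184 by limma) in BxPC3-R, lost without BxPC3 replicate 1, BxPC3 replicate 2 or BxPC3-R replicate 3 (up to 0.0847). The changes of CD14, 0.28 and -0.30, differed between the lines by 0.58 (SE 0.16; adjusted p = 0.0151 by limma). The defining marker PTPRC stayed between 3.10 and 3.61 on all 12 arrays. The sum of the 4 endothelial markers was 7.52 to 7.92 in AsPC1, 7.72 to 7.86 in AsPC1-R, 9.68 to 9.96 in BxPC3 and 7.86 to 7.99 in BxPC3-R, led in BxPC3 by CDH5 at 9.34. PECAM1, another of them, had the same order of group means as ZC3H12C, with 5.69 in AsPC1, 6.35 in AsPC1-R, 7.28 in BxPC3 and 6.04 in BxPC3-R. It rose by 0.66 (SE 0.13; adjusted p = 0.00292 by limma) in AsPC1-R and stood at -1.24 (SE 0.13; adjusted p = 1.60e-05 by limma) in BxPC3-R. With its probe sets averaged, the AsPC1-R change was 0.21 (adjusted p = 0.365). ITGAM, CD3E, CD14 and PECAM1 each had group means under the 6.22 of the deleted CDKN2A, so their changes are uncertain. The sum of the 5 fibroblast markers was 11.60 to 11.79, 10.66 to 10.87, 8.35 to 8.49 and 8.62 to 8.75 in the same order, led in AsPC1 by LUM at 11.55, while DCN read 4.10 or less as a group mean. The 6 epithelial markers summed to 14.48 to 14.76, 14.29 to 14.43, 13.77 to 13.84 and 13.94 to 14.00. The part of CD68, ITGAM, CD3E, CD14, PECAM1, CDH5 and LUM in the ZC3H12 results was not tested.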

How the data were processed

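The authors deposited log2 expression levels per probe set for 12 arrays. Per the submitters' processing notes, Affymetrix Expression Console and RMA made them, which corrects background, quantile-normalizes arrays and summarises probes. For the versions and the genome build, the sources used here name none. Of 33297 probe sets, the 19460 with 1 gene symbol in the platform annotation were kept, 1754 with several and 12083 without a listed symbol were left out, and the probe set with the highest mean was used per gene, giving 18417 genes. Of these, 18389 matched RefSeq (GRCh38.p14) by gene number, used for chromosome, gene order and promoters.

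limma 3.58.1 in R 4.3.3 was fitted to all 12 arrays with a mean per group (8 residual and 5.47 prior degrees of freedom). Tests were two-sided, the Benjamini-Hochberg adjustment ran over all genes, and genes rose, fell or differed at an adjusted p under 0.05. Values in parentheses as SE are limma's. The script was tested on simulated data. Median changes over all genes were between -0.07 and 0.11.

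The members, lists and tests were chosen with earlier results of these data known. Named genes were all members, up to 4 genes per list and derivative, taken by size among those called, the 5 genes nearest to each called member by root mean square difference, and SMAD4 and CDKN2A. LCN2, GATA3, TFRC, TBK1, BCL10, IRAK1 and the chromosome 11 neighbours, and markers beyond the fixed lists' rule, were named after their values were seen. So were PTGS2, CXCL3, CCL2 and BCL2A1, and alternatives are not given for each of these. Alternatives tried were leaving out each array in turn, a threshold of 0.01, array weights, averaging a gene's probe sets, fitting the compared groups alone, trended and robust eBayes, centring arrays on medians, a further quantile normalization, a filter on dim genes (highest group mean under 6.55, the median of all values), and a block for replicate number. Centring the arrays on their medians for the nearest genes, and all alternatives for printed genes outside the naming rule, were added after seeing the data.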

Additional observations from a re-analysis of the deposited data

Results flagged for a closer look

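The change of ZC3H12C in AsPC1-R minus its change in BxPC3-R was 5.25 (SE 0.14, log2; adjusted p = 1.12e-11 by limma), because the gene rose in one derivative and fell in the other, on 3 of 3 arrays each. The same difference for ZC3H12A was 0.95 (SE 0.15; adjusted p = 0.000377 by limma), where the fall in BxPC3-R passed the test and the change in AsPC1-R did not.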

How the results depend on the processing

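Over 20 results on the members, with 411 values under alternatives, 392 kept their direction and their side of the threshold. All alternatives of ZC3H12C did so: its change ranged from 4.05 to 4.16 in AsPC1-R and from -1.21 to -1.07 in BxPC3-R. The fall of ZC3H12A in BxPC3-R ranged from -0.74 to -0.59. The comparison of AsPC1-R with BxPC3-R was the least stable. There ZC3H12A lost its call with quantile normalization once more (0.25, adjusted p = 0.0790) and with arrays centred on their medians (0.26, adjusted p = 0.0634), and both ZC3H12A (0.29) and ZC3H12D (0.29) lost it at an adjusted p under 0.01, which left 1 member called. With single arrays left out, this difference ranged from 0.25 to 0.31 for ZC3H12A and from 0.28 to 0.30 for ZC3H12D, the calls from 1 to 3, and that of ZC3H12B from -0.016, a reversal without BxPC3-R replicate 2, to 0.19. Without that array, ZC3H12B also passed for the difference between the lines (-0.44, adjusted p = 0.0400; range over arrays left out -0.44 to -0.23). The cause was not tested.

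A pairing of samples by replicate number was not shown. Deviations of same-numbered arrays correlated between -0.24 and 0.34 over 18 pairs, and those of differently numbered arrays between -0.32 and 0.26. These ranges overlap and cannot decide whether same-numbered samples belong together. With replicate number as a block, the change of ZC3H12C in AsPC1-R was 4.12 (adjusted p = 2.15e-10 by limma) and that of ZC3H12A in BxPC3-R -0.69 (adjusted p = 0.000563). Of the printed genes followed under alternatives, RC3H1, CNOT6L in AsPC1-R and ITGAM lost a call with the block. The block left 1 rise among the RNA-binding genes in AsPC1-R and 1 fall in BxPC3-R, and gave 2 rises in deadenylation and decapping in BxPC3-R.

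Among 671 values of the 32 changes in the lists that the naming rule selects, 35 lost the call and 0 reversed. They belong to RC3H1 (8) and TRAF3IP2 (2), given above, and to ARID5A (4), KHSRP (3), LSM1 (3) and PAN2 (5) in AsPC1-R and TOB1 (6) and XRN1 (4) in BxPC3-R. For 42 other printed changes, 55 of 879 values lost the call and 0 reversed, in CNOT6L, CACNB1, ITGAM, TBK1, PCYOX1L and PECAM1 in AsPC1-R and CD3E and DDX10 in BxPC3-R. The Regnase-1 target counts stayed at 8 to 9 rises in AsPC1-R and 13 to 14 falls in BxPC3-R with arrays left out. The other alternatives gave 10 to 14 falls in BxPC3-R. CXCL3, CCL2 and BCL2A1, which fell there, do not reach the filter on dim genes, with highest group means of 6.42, 6.24 and 6.07. In AsPC1-R, 1 fall appeared with arrays centred on their medians. With the same centring, rises in BxPC3-R went from 2 to 6 among RNA-binding genes and from 1 to 4 in deadenylation and decapping. With array weights they went to 8 and 6, and rises upstream from 3 to 5. The filter on dim genes, a further quantile normalization and trended eBayes gave 4, 4 and 4 rises among RNA-binding genes and 3, 2 and 4 in deadenylation and decapping, where fitting the compared groups alone gave 2. Centring left 1 fall among RNA-binding genes and 2 in deadenylation and decapping in BxPC3-R. In AsPC1-R, falls upstream went from 2 to 5 with quantile normalization once more and to 1 with the compared groups alone, which also left 1 rise among RNA-binding genes and 2 falls in deadenylation and decapping. At an adjusted p under 0.01, AsPC1-R had 0 falls upstream, 1 rise and 1 fall among RNA-binding genes and 1 rise and 2 falls in deadenylation and decapping, and BxPC3-R had 1 fall in each of the last 2 lists. ZC3H12B did not reach the filter on dim genes, so that alternative gave no value for it. No member has another probe set, so averaging a gene's probe sets could not alter a member's change. Its values are still counted among the 411 and the 392 above, where they are no check of stability. Fitting the compared groups alone gives no separate value for the difference between the lines, which uses all groups.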

Other observations

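The genes nearest to ZC3H12D over the 12 arrays were COL18A1 (root mean square difference 0.07 log2 units), which encodes a basement membrane collagen, ZBTB7B (0.07), RO60 (0.07), SPIRE2 (0.07) and HCN3 (0.07). All 5 were higher in AsPC1 than in BxPC3 by limma, by 0.46 to 0.62, and none passed the test in either derivative. Those nearest to ZC3H12B were KCNV2, SEZ6L, MMEL1, MORN1 and IBA57, at 0.10 to 0.11, each with changes of at most 0.25 in size in the derivatives that did not pass the test. The genes of both sets were selected for likeness to the member, so their agreement with it is no test.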
